A study of Marmota monax with 203 samples.

Results

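MHC class I molecules show fragments of intracellular proteins, viral ones included, to CD8+ T cells. The fragments are cut by the proteasome, pumped into the endoplasmic reticulum by a transporter and loaded with the help of chaperones onto a heavy chain that is paired with a light chain. Interferons are known to exchange the catalytic subunits of the standard proteasome for those of the immunoproteasome, and most hepatocytes hold little of this machinery at rest. Described here are 10 genes of this pathway, chosen by name: B2M (light chain), TAP1 and TAP2 (the subunits of the peptide transporter), TAPBP (tapasin, which bridges transporter and heavy chain), PSMB8, PSMB9 and PSMB10 (immunoproteasome catalytic subunits), PSME1 and PSME2 (the PA28 activator) and NLRC5 (a transactivator of class I genes). All 10 were among the 17587 genes of the deposited tables, and 10 of 10 passed the filter on low counts in every comparison.

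RNA-Seq was performed on liver biopsies of woodchucks (Marmota monax) that carried woodchuck hepatitis virus (WHV) chronically after neonatal infection with the cWHV7P2a inoculum. Animals of both sexes, born in captivity, received placebo (n = 12) or woodchuck interferon-α (wIFN-α, n = 11), 20 μg at the low dose of weeks 0 and 3 and 100 μg at the high dose of weeks 7, 11 and 15. Doses were given 3 times a week. Biopsies on treatment were taken 6 h after a dose, which at week 7 was the first of 100 μg and at week 15 the last. Further biopsies were taken 3 weeks before treatment (week -3) and off treatment at weeks 19 and 23. Weeks are given as in the study. From the first dose on, the sample labels count 1 higher. The placebo group therefore shares infection and biopsy schedule with the treated group, and fewer animals of both groups had a biopsy at the later weeks. The numbers of placebo and wIFN-α animals were 12 and 11 at weeks -3 and 0, 12 and 9 at weeks 3 and 7, 10 and 8 at week 11, 9 and 8 at week 15, 5 and 6 at week 19, and 9 and 6 at week 23. In all 149 biopsies of these 23 animals were compared, at 12072840 to 84805845 reads on genes per biopsy (median 28754894).

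Some biopsies stood apart. A list of 10 hepatocyte markers took 15.2% of reads in the median placebo biopsy at week -3, but 0.0438% in placebo animal F1016 and 0.0272% in wIFN-α animal F1018, where a list of 12 skeletal muscle genes took 14% and 12.1%. At week 3 the muscle list took 9.63% of reads in placebo animal F1021. In wIFN-α animal F1013 all 10 genes at week 3 were below every other treated animal. Several of the results that rest on these biopsies are given with and without them. In bulk tissue, fewer cells of a type and less RNA per cell cannot be told apart.

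Before treatment, the level of each of the 10 genes overlapped between groups. Levels are CPM, reads of a gene scaled to the size of its library. For TAP1 they ranged from 8.1 to 64.8 (median 34.6) in placebo animals and from 5.06 to 50.8 (median 39.2) in the wIFN-α group, and the lowest value of each group was that of F1016 and F1018. These animals were the lowest of their group for 8 and 9 of the 10 genes. By edgeR's quasi-likelihood test the log2 fold changes lay between -0.19 (NLRC5) and -0.0076 (PSMB10). None of the 10 was called, among 14963 genes tested of which 0% were called, and none of the 10 had an unadjusted p under 0.05 (0.869% of all genes did). DESeq2 and limma-voom also called 0 of the 10. Without F1016 and F1018 the range was -0.16 to -0.015.

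Per kilobase of gene model, a scale on which genes can be set side by side if the lengths hold, B2M stood far above the rest in placebo livers, with a median of 517 RPKM over 81 biopsies, against 56.5 for PSME1 and 39.4 for PSME2. The lengths (1.02 kb for B2M, 3.58 for PSMB9 and 7.03 for TAP2) came from the deposited values and were not checked against transcripts. Orders between genes depend on them. PSMB8 (21.4) and TAPBP (20.7) followed and could not be ordered, since PSMB8 was the higher of both in 44 of the 81 biopsies. PSMB10 (13.3), TAP1 (10), NLRC5 (6.78), TAP2 (5.52) and PSMB9 (4.31) were lowest, with PSMB9 below TAP2 in 57 of 81. The spread between placebo animals was wide for several genes. Over all 81 biopsies PSMB8 ranged from 2.91 to 70.7 RPKM, TAP1 from 1.77 to 40.8 and TAPBP from 7.64 to 29.1, each with F1016 at week -3 lowest. Without that biopsy and F1021 at week 3, both with muscle reads, the low ends were 6.4, 3.11 and 14.8. Placebo animal M1008 was the highest of its group for 4 of 10 genes at week -3, 6 at weeks 0 and 3, none at week 7, 4 at week 11, 5 at week 15, 8 at week 19 and 10 at week 23.

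The first question was how much of this machinery a first low dose raises within 6 h. At week 0, 9 of the 10 genes rose, by 1.75-fold (PSME1) to 4.58-fold (TAP1), while 10.3% of the 14700 genes tested rose. The median log2 fold change of the 10 was 1.67, against -0.0078 over all genes tested. Calls required a Benjamini-Hochberg adjusted p under 0.05 together with a change over 1.5-fold. For 6 of the 10 every wIFN-α animal lay above every placebo animal, a pattern seen for 4.01% of all genes tested.

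TAP1 had the largest fold change of the 10 in each of the fits run for week 0. It lay between 255 and 440 CPM (median 313) in the 11 wIFN-α animals and between 21.1 and 139 (median 55.5) in the 12 placebo animals. The groups did not overlap, with F1023, whose biopsy held 7.3% of reads on the muscle list, lowest and M1003 highest among the treated. The log2 fold change was 2.20 (SE 0.238, adjusted p = 8.54e-08). TAP2, its partner, ranged from 128 to 222 under wIFN-α and from 27.6 to 88 under placebo, again without overlap, with a log2 fold change of 1.96 (SE 0.159, adjusted p = 5.86e-10). Tapasin (TAPBP) rose less but evenly, from 76.3 to 145 in placebo animals to 172 to 316, a log2 fold change of 1.16 (SE 0.106, adjusted p = 5.03e-09).

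All 3 catalytic subunits of the immunoproteasome rose at week 0. PSMB8 lay between 150 and 242 (median 186) in the wIFN-α animals and between 19.2 and 142 (median 50.9) in the placebo animals, which is no overlap but a narrow gap. PSMB10 was separated more clearly, at 76.8 to 124 against 17.3 to 52.9. PSMB9 was above every placebo animal in 10 of 11 treated animals, at 62.6 to 123 against 6.79 to 65.6. Their log2 fold changes were 1.56 (PSMB8, SE 0.241), 1.79 (PSMB9, SE 0.267) and 1.91 (PSMB10, SE 0.187). Of the PA28 activator, PSME1 rose by 0.81 (SE 0.124) and PSME2 by 1.12 (SE 0.158) on the log2 scale, and for each the 2 groups overlapped, with 8 of 11 treated animals above every placebo animal.

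NLRC5 also rose, from 28.7 to 117 (median 53.6) to 161 to 380 (median 265), a log2 fold change of 1.94 (SE 0.206, adjusted p = 5.97e-08). B2M was the exception. It lay between 521 and 1030 (median 754) in wIFN-α animals and between 263 and 1118 (median 564) in placebo animals. No treated animal exceeded the highest placebo animal, and the log2 fold change of 0.34 (SE 0.187) was not called (adjusted p = 0.171, 0.0752 to 0.54 over the alternative fits).

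**Figure D1:**
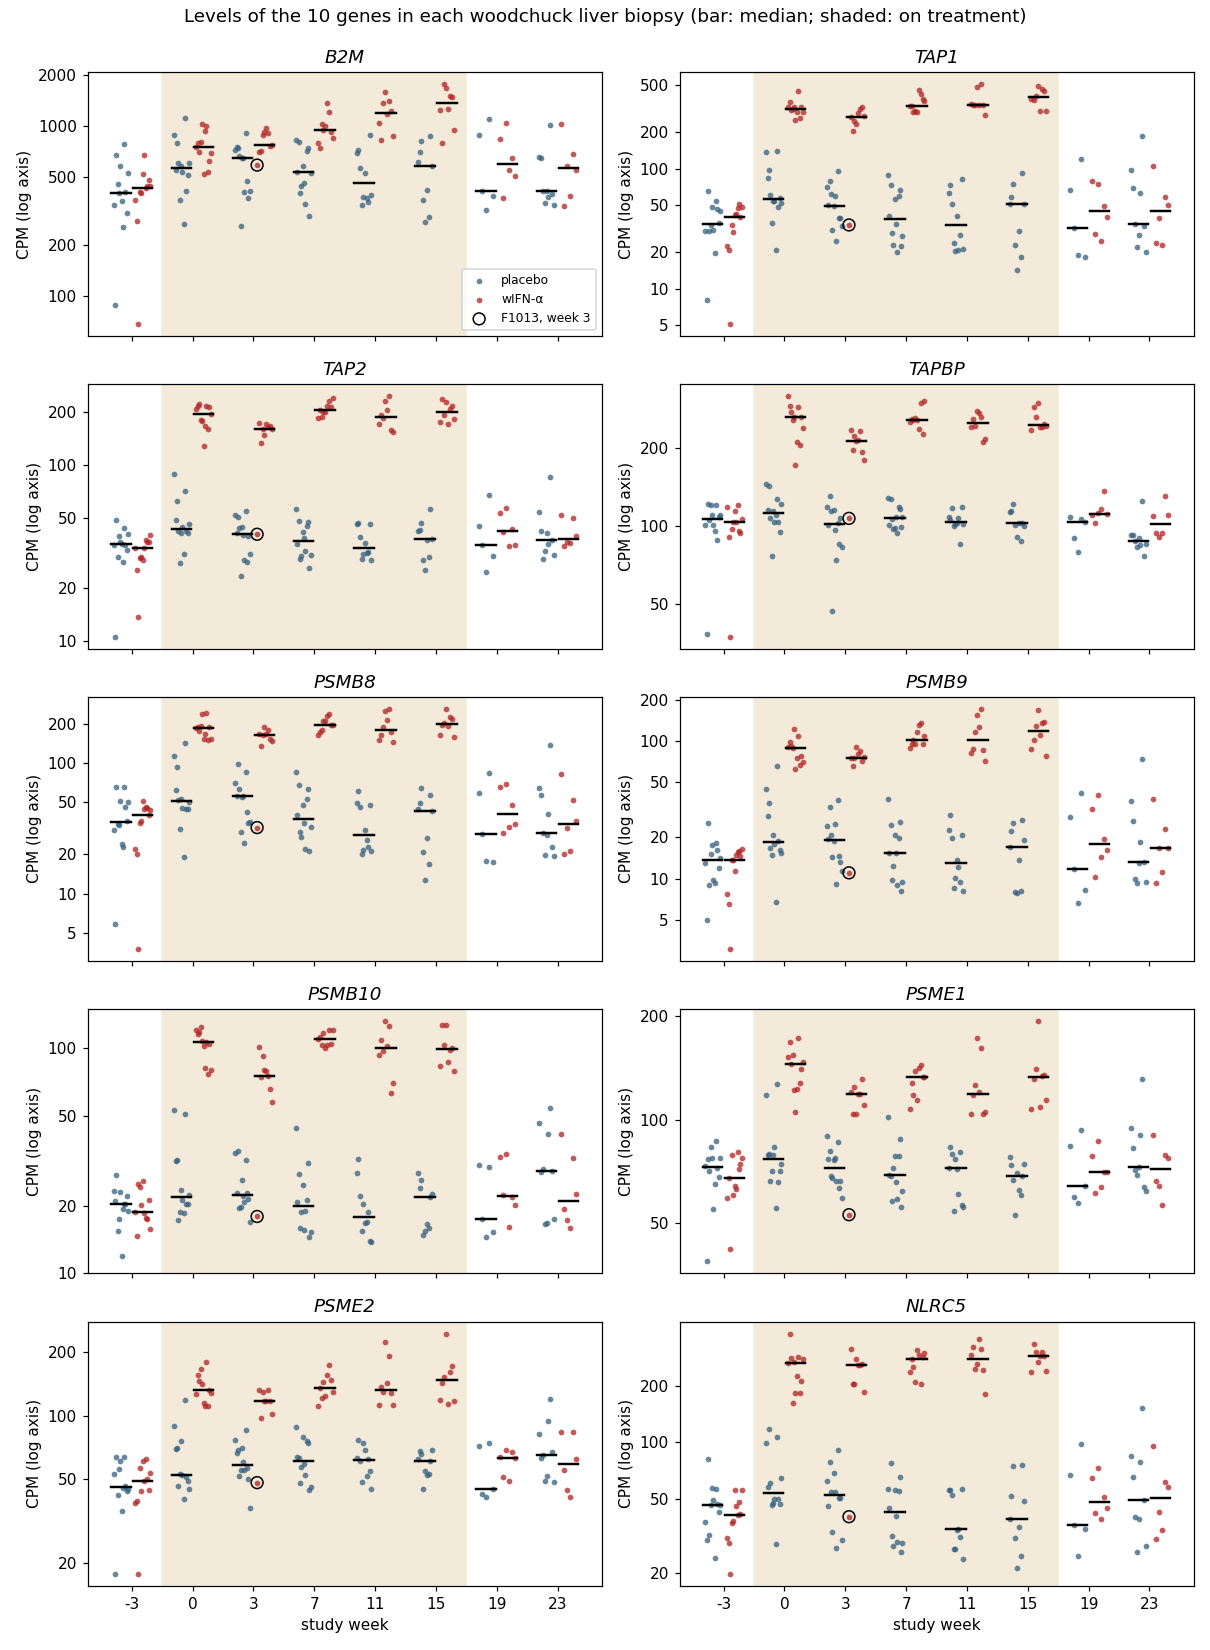
Levels of the 10 genes (vertical log axis, CPM) in each biopsy by study week, with placebo in blue, wIFN-α in red, the group median as a black bar and the weeks on treatment shaded. TAP1 of the treated animals lay at 255 to 440 at week 0 and F1013 (circled) at 33.9 at week 3, inside the placebo range.

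After 3 weeks of the low dose, 8 of the 10 genes were called higher, while 7.24% of 15006 genes tested were. TAP1 lay between 33.9 and 323 (median 271) in the 9 wIFN-α animals and between 24.9 and 95.3 (median 48.9) in the placebo animals. The low end was F1013 alone, whose TAP1 had been 329 at week 0 and was 331 at week 7. F1013 was the lowest treated animal for 10 of the 10 genes at week 3 and exceeded the highest of the placebo biopsies for none. The other 8 treated animals lay above every placebo animal of week 3 for TAP1, TAP2, TAPBP, PSMB8, PSMB9, PSMB10, PSME1, PSME2 and NLRC5. With all 9 treated animals none of the 10 genes was free of overlap, and without F1013, left out after its values were seen, 9 were, as were 3.94% of all genes tested.

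The log2 fold changes at week 3 were 2.22 for TAP1 (SE 0.288), 2.05 for NLRC5 (SE 0.261) and 1.80 for PSMB9 (SE 0.279), and without F1013 they were 2.37, 2.19 and 1.94. TAP2 was at 1.87 (SE 0.196). PSME1, at 0.58 (1.49-fold, adjusted p = 0.00119), missed the fold threshold and passed it without F1013, at 0.66. B2M (588 to 968 against 256 to 908) was at 0.46 (1.37-fold) with an adjusted p of 0.0746, 0.0364 to 0.142 over the alternative fits. Without F1013 it was at 0.50 with an adjusted p of 0.0521. Over the alternative fits its log2 fold change of 0.39 to 0.54 stayed under the fold threshold. In placebo animal F1021, whose biopsy held muscle reads, TAP1 was 30.7, and 8 of the 10 genes were also called without that animal.

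At the high dose all 10 genes were called higher, at week 7 (11.4% of 14868 genes tested), week 11 (12.6% of 14966) and week 15 (13.4% of 14943). The median log2 fold changes of the 10 were 2.25, 2.36 and 2.35. At each of these weeks 9 of the 10 genes did not overlap between groups, against 7.84%, 7.18% and 8.12% of all genes tested, and B2M was the one that did.

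At the end of treatment, TAP1 lay between 301 and 486 (median 392) in the 8 wIFN-α animals and between 14.2 and 91.9 (median 50.5) in the 9 placebo animals, a log2 fold change of 3.13 (8.75-fold, SE 0.327, adjusted p = 5.02e-07). Its week 11 value was 3.14. TAP2 lay between 169 and 235 against 25.3 to 56, a change of 2.39 (SE 0.144). TAPBP was the tightest of the 10, at 235 to 297 against 87.4 to 122, a change of 1.33 with an SE of 0.0797. The lowest treated value of each of these genes lay above the highest placebo value.

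The immunoproteasome subunits at week 15 stood at 160 to 261 against 12.8 to 64.3 CPM for PSMB8, 77.7 to 168 against 7.83 to 26.6 for PSMB9, and 78.9 to 127 against 14.8 to 27.9 for PSMB10. Their log2 fold changes were 2.47 (SE 0.283), 2.87 (SE 0.272) and 2.31 (SE 0.152). The activator rose less. PSME1 was at 107 to 193 against 52.8 to 77.8 (1.00, SE 0.114) and PSME2 at 114 to 245 against 44.9 to 68.5 (1.40, SE 0.144), with treated animal F1020 highest for both. NLRC5 lay between 236 and 335 against 21.2 to 75.3, a change of 2.69 (SE 0.232, adjusted p = 3.98e-08).

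B2M, not called at the low dose, rose 1.77-fold at week 7, 2.27-fold at week 11 and 2.46-fold at week 15 (log2 0.83, 1.18 and 1.30, SE 0.169, 0.2 and 0.241). At week 15 it lay between 788 and 1768 (median 1362) in treated and between 273 and 876 (median 582) in placebo animals, and 7 of 8 treated animals exceeded every placebo animal. Per kilobase it remained the highest of the 10 in each of the 8 treated biopsies (median 1333 RPKM). PSME1 (104), PSME2 (102), PSMB8 (99.2) and TAP1 (85.7) came next, and the first 3 of these could not be ordered beyond their spread, PSME1 exceeding PSME2 in 5 of 8 biopsies and PSME2 exceeding PSMB8 in 6. In the placebo animals of that week TAPBP exceeded PSMB10 in 9 of 9 biopsies and PSMB10 exceeded TAP1 in 8 of 9. In the treated animals the order was the opposite, TAP1 exceeding PSMB10 in 8 of 8 biopsies and PSMB10 exceeding TAPBP in 8 of 8.

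The 2 sequencing runs of placebo animal M1008 at week 15 gave unequal values, with 76.4 and 51.1 for PSMB8 and 76.6 and 112 for NLRC5. These are CPM by total reads alone, without the scaling between libraries used elsewhere, and are not on the scale of the other levels. The runs were summed. All 10 genes were also called at week 15 when M1008 or any other single animal was left out.

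**Figure D2:**
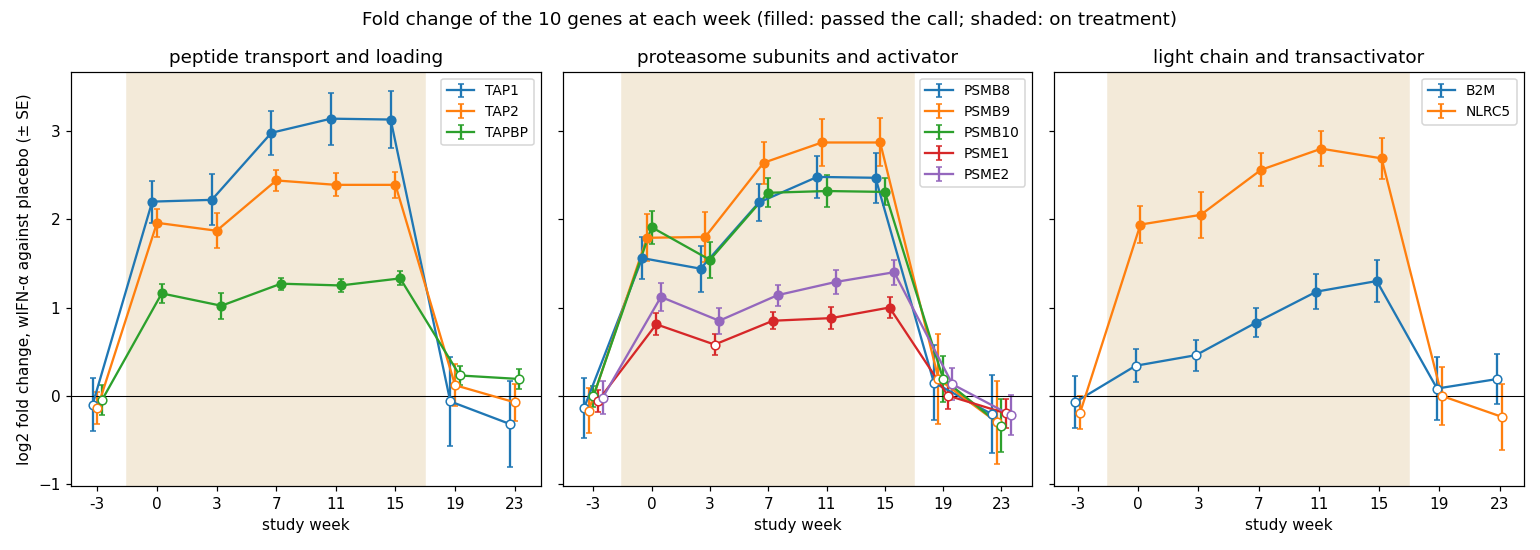
Log2 fold change of wIFN-α against placebo (vertical axis, with its standard error) by study week for the transporter and tapasin, the proteasome genes, and B2M with NLRC5, where filled points passed the call and the weeks on treatment are shaded. TAP1 reached 3.13 at week 15 while B2M rose from 0.34 at week 0 to 1.30, and no gene passed the call at weeks -3, 19 and 23.

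Whether the effect changed between stages was tested as the difference of the log2 fold changes. From week 0 to week 3 the differences of the 10 genes lay between -0.37 (PSMB10, SE 0.28) and 0.11 (B2M, SE 0.265). Without animal F1013 the highest was 0.25, and again none was called by edgeR. With all animals none was called by edgeR (0.383% of 15406 genes tested were), by DESeq2 or by limma-voom, and none had an unadjusted p under 0.05 (13.8% of all genes did). From the low dose (mean of weeks 0 and 3) to week 15 all 10 differences were above 0, from 0.19 (TAPBP, SE 0.15) to 1.03 (PSMB9, SE 0.357). None of the 10 was called by edgeR, while 2.04% of 15666 genes tested were larger. Of the 10, 6 had an unadjusted p under 0.05, as 15.7% of all genes did. B2M came closest, with a difference of 0.85 (SE 0.258, adjusted p = 0.0569), and was called by DESeq2 (0.87, adjusted p = 0.0305). Limma-voom called none.

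The same animals were biopsied at each stage. With the animal as a block, 5 of the 10 were called larger at week 15 than at the low dose: B2M (0.85, SE 0.15, adjusted p = 3.81e-04), TAP1 (1.06, SE 0.261, adjusted p = 0.00643), PSMB8 (1.01, SE 0.216, adjusted p = 0.00216), PSMB9 (1.04, SE 0.26, adjusted p = 0.00744) and NLRC5 (0.70, SE 0.229, adjusted p = 0.0381). In that fit 6.68% of 16429 genes tested were called larger. TAP2 (0.45), PSMB10 (0.53), PSME1 (0.26), PSME2 (0.29) and TAPBP (0.14) were not. The low dose here includes F1013 at week 3, the lowest treated animal of that week for 10 of the 10 genes. The fit with the block was not repeated without that biopsy. How far the 5 calls rest on it was therefore not tested. Dose and time on treatment rose together and cannot be told apart. Between weeks 7 and 15, after the first and the last dose of 100 μg, the differences ran from -0.066 (TAP2, SE 0.186) to 0.46 (B2M, SE 0.296). No gene of the 10 was called by edgeR, DESeq2 or limma-voom, with or without the block, and none had an unadjusted p under 0.05 without it (9.28% of all genes did), while 0.00649% of 15407 genes tested were called.

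Off treatment no rise was detected. At week 19 TAP1 lay at 24.7 to 78.9 in 6 treated animals and at 18.2 to 120 in 5 placebo animals, and at week 23 at 22.9 to 106 and 20.1 to 187. The groups overlapped for all 10 genes at both weeks, while for 0.714% and 0.0468% of all genes tested the treated animals all exceeded the placebo animals. Effects on the log2 scale lay between -0.064 (TAP1) and 0.23 (TAPBP) at week 19, and between -0.34 (PSMB10) and 0.19 (B2M) at week 23. These limits rest on single animals, since without M1008 the highest at week 19 was 0.70 (PSMB9) and without F1013 the lowest at week 23 was -0.68 (TAP1). None of the 10 was called by edgeR, DESeq2 or limma-voom at either week. Of all genes tested 0% were called by edgeR, and TAPBP at week 19 was the only one of the 10 with an unadjusted p under 0.05 (0.0462) at either week (12.6% and 16.2% of all genes), with 5 of 6 treated animals above every placebo animal.

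The drop itself passed the test for each of the 10. From week 15 to the mean of weeks 19 and 23 the effect fell by 3.29 on the log2 scale for TAP1 (SE 0.542, adjusted p = 8.41e-06), while the differences were -2.89 for PSMB9, -2.77 for NLRC5, -2.46 for PSMB8, -2.35 for PSMB10 and -2.34 for TAP2. They were -1.40 for PSME2, -1.13 for B2M (adjusted p = 0.0122), -1.09 for TAPBP and -1.06 for PSME1. Of 15731 genes tested, 17.5% fell. With the animal as a block 10 of 10 were called, and 17.5% of 16395 genes tested fell.

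**Figure D3:**
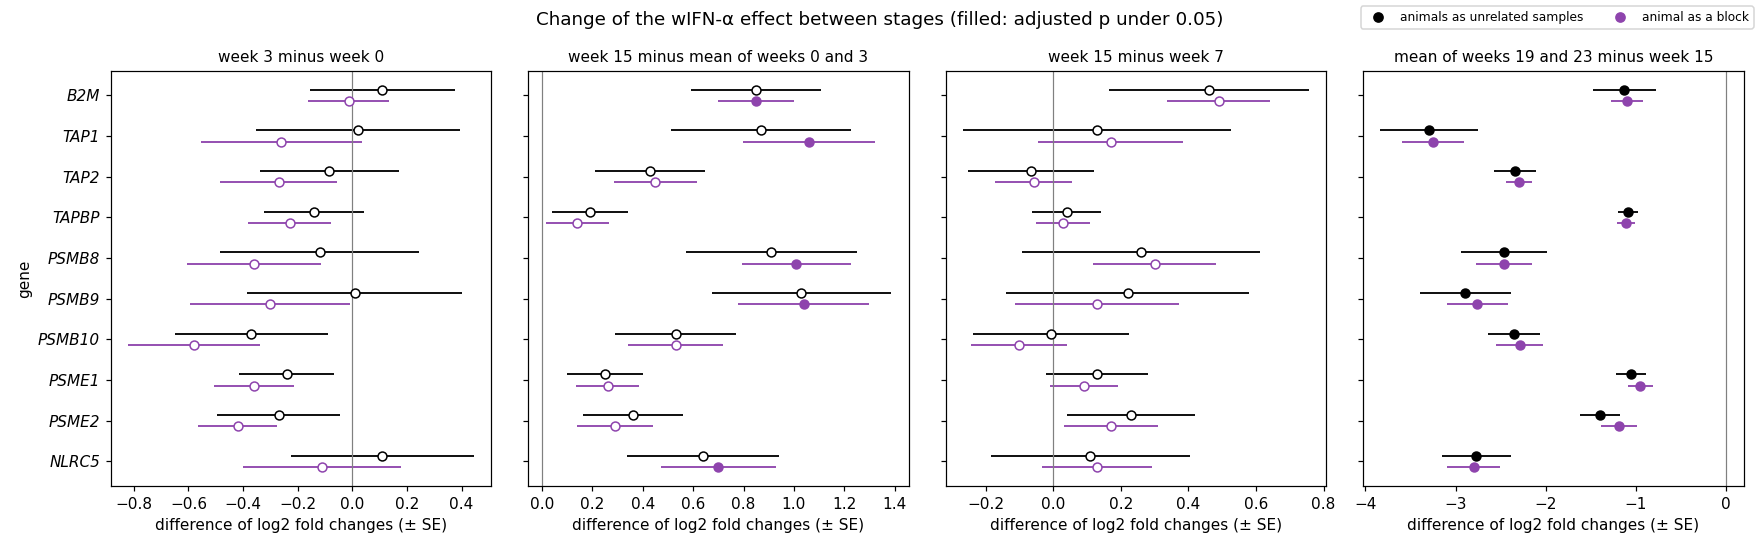
Difference of the wIFN-α effect between stages (horizontal axis, difference of log2 fold changes with its standard error) for each gene, with animals taken as unrelated samples in black and with the animal as a block in purple, filled where the adjusted p was under 0.05. For week 15 against the low dose 5 genes are filled with the block and none without it, and for the weeks off treatment all 10 are filled in both.

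At week 15 the effect did not pass the test for a difference between females and males for any of the 10 genes, with differences of -0.12 (NLRC5, SE 0.481) to 0.094 (PSMB8, SE 0.589). EdgeR, DESeq2 and limma-voom called 0 of the 10, none had an unadjusted p under 0.05 (4.58% of all genes did), and 0% of 15624 genes tested were called by edgeR. Only 3 of the 8 treated animals were male.

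The exchange of proteasome subunits was followed as the share of each inducible subunit within the pair it forms with its standard counterpart, in reads per kilobase. PSMB5, PSMB6 and PSMB7 encode those counterparts. None of them was called at any week, with log2 fold changes at week 15 of -0.062, -0.064 and -0.092 (SE 0.0778, 0.0777 and 0.0685). The effect on PSMB5 was higher off treatment than at week 15, by 0.46 (adjusted p = 0.0405, edgeR). The test of each share was a two-sided permutation test, run exactly for groups of under 10 animals, with p adjusted over 40 tests (5 shares at 8 weeks).

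PSMB8 made up 54.2% to 70.1% (median 62.7%) of the PSMB8 and PSMB5 pair in treated animals at week 0, and 13.7% to 60% (median 32.9%) in placebo animals. The groups overlapped, with 9 of 11 treated animals above every placebo animal, and the means differed by 27.4 percentage points (permutation test, adjusted p = 1.33e-04). At week 15 the share was 58.2% to 75.3% (median 68.8%) against 11.3% to 42.2% (median 28.5%), without overlap (exact permutation test, adjusted p = 1.18e-04). The PSMB10 share of the pair with PSMB7 also separated the groups. It was 45.3% to 61.1% (median 54.6%) in treated animals at week 15 and 12.9% to 22.9% (median 19.3%) in placebo animals, a mean difference of 35.4 percentage points (exact permutation test, adjusted p = 1.18e-04).

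Per kilobase, PSMB9 stayed the smaller partner of PSMB6 in every treated animal. That order rests on the gene model lengths (3.58 kb for PSMB9), which were not checked against transcripts. In reads not divided by length it was reversed at week 15, with 77.7 to 168 CPM for PSMB9 and 45.8 to 54.7 for PSMB6 in treated animals. The PSMB9 share per kilobase was 25.3% to 45.7% (median 36.1%) at week 15, against 2.9% to 13.1% (median 6.96%) under placebo, a mean difference of 28.8 percentage points (exact permutation test, adjusted p = 1.18e-04). In F1013 at week 3 the 3 shares were 21.7%, 4.38% and 15.8%, the lowest of the treated animals. At weeks 19 and 23 the median PSMB8 share of the treated animals was 26.5% and 26.6%, and none of the 5 shares passed the test at week -3, 19 or 23.

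The partners of the TAP and PA28 heterodimers did not rise in step. TAP1 made up 70.8% to 77.6% (median 76.2%) of the TAP1 and TAP2 pair in treated animals at week 15 and 46.3% to 71.6% (median 64.7%) in placebo animals, with 7 of 8 treated animals above every placebo animal. The mean difference was 14.2 percentage points (exact permutation test, adjusted p = 8.62e-04). At week 3 it was 4.57 points and did not pass (exact permutation test, adjusted p = 0.0841), while without F1013 it did (6.32 points, adjusted p = 0.00254, exact permutation test). PSME1 went the other way, from 53.6% to 59.5% (median 56.5%) of the PSME1 and PSME2 pair in placebo animals to 47.4% to 52.9% (median 51%) in treated animals at week 15, without overlap (exact permutation test, adjusted p = 1.94e-04). These shares describe RNA and not assembled protein.

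**Figure D4:**
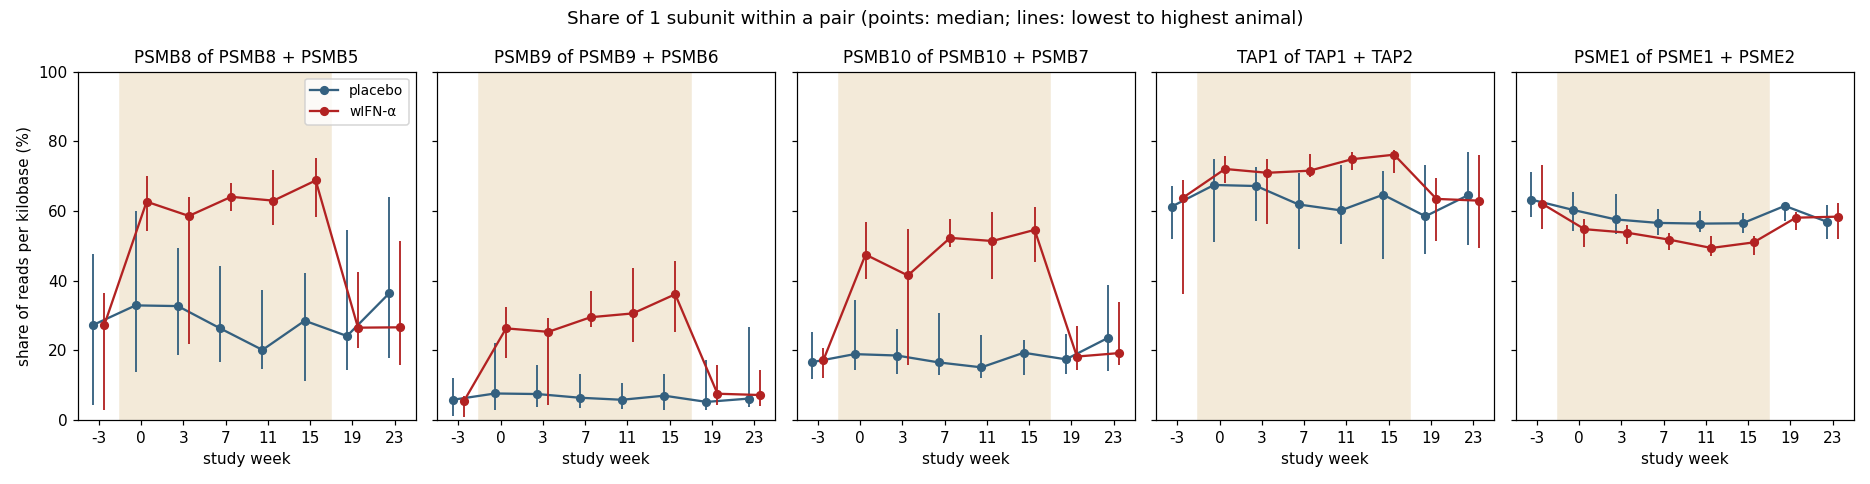
Share of the first-named subunit within its pair (vertical axis, percent of reads per kilobase) by study week, with the group median as a point, the lowest to highest animal as a line, placebo in blue, wIFN-α in red and the weeks on treatment shaded. At week 15 the PSMB8 share was 68.8% in the median treated animal and 28.5% in the median placebo animal.

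Other genes of the pathway, in 5 lists of 35 genes in all, were read beside the 10. Counts of these lists stand beside 10.3% of all genes tested that rose at week 0 and 13.4% that rose at week 15. The class I heavy chains carry the names of human genes, and reads of such close paralogues may have been shared out between them, so that their separate values are uncertain. Of 8 heavy chain and related genes, 7 rose at week 0 and 7 at week 15, with median log2 fold changes of 0.90 and 2.07. The exception at both weeks was MR1, which presents vitamin metabolites to MAIT cells, at -0.14 and 0.045. HLA-B and HLA-C were among the genes called larger at week 15 than at the low dose without a block (differences of 1.32 and 1.42), with adjusted p of 0.0276 and 0.0114 by edgeR, beside 0.0569 for B2M, their light chain.

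Of 6 genes of peptide loading and trimming, 3 rose at weeks 0 and 15. They were TAPBPL, a tapasin relative (1.27 at week 15), and the trimming peptidases ERAP1 (0.95) and ERAP2 (0.78). The chaperones CALR, CANX and PDIA3 were not called at week 15, at -0.23, 0.33 and 0.45, although CANX and PDIA3 passed on p (adjusted p = 7.58e-04 and 0.00139, edgeR) and missed only the fold threshold. Of 8 other proteasome genes 1 rose at each of these weeks, a share near that of all genes. It was POMP, the assembly chaperone of the proteasome, by 0.89 at week 0 (SE 0.0662) and 0.76 at week 15 (SE 0.0691). PSME3, which forms an activator of its own, was at 0.20 at week 15 (adjusted p = 0.131, edgeR). At week 7 it was at 0.32 (adjusted p = 0.00102, edgeR), under the fold threshold. PSME4 was at 0.48 at week 15 (adjusted p = 1.41e-04, edgeR) and also missed only the fold threshold. Of 3 peptidases 1 rose, NPEPPS, by 0.84 at week 15, while TPP2 was at -0.26 and LNPEP at -0.056.

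Of 10 transcription factors of class I and II genes, 4 rose at week 0 and 5 at week 15, beside 10.3% and 13.4% of all genes. Among them, IRF1 changed by 2.13 at week 15, IRF2 by 1.08, RFX5, the DNA-binding partner of NLRC5, by 1.00, and CIITA, the class II counterpart of NLRC5, by 0.92. RFXANK and RFXAP, the other subunits of the RFX complex, were not called at week 15, at -0.14 and -0.19, nor at week 0, at -0.47 and -0.56, where each had an adjusted p under 0.05 but a change under 1.5-fold. CIITA was at -0.012 at week 0 (adjusted p = 0.967), when NLRC5 was at 1.94.

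Among the 13905 other genes at 1 CPM or more, those whose deviations from the group means were most like the mean of the 10 over the 149 biopsies included HLA-C (Pearson's r = 0.907), IRF1 (0.901), GBP1 (0.886) and HLA-J (0.881). Over the 16 means of agent and week they were GBP1 (0.996), TNFRSF1B (0.995), UBA7 (0.995), GBP3 (0.993) and EPSTI1 (0.993). Among the 10 themselves, PSMB8 (0.968), TAP1 (0.960) and PSMB9 (0.957) followed the mean of the other 9 most closely over biopsies, and TAPBP (0.715) and PSMB10 (0.720) least. All these values share libraries and scaling and are descriptions. In the RefSeq annotation of Marmota monax, Psmb9, Tap1, Psmb8 and Tap2 are listed next to each other in that order, and Psme1 and Psme2 have Emc9 alone between them. That annotation was used for names and neighbours only.

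More of the listed immune cell markers were called higher at week 15 than at week 0. Over all genes tested 10.3% were called higher at week 0, and 13.4% higher and 8.83% lower at week 15. A list of 9 T cell markers summed to 50.7 to 149 CPM in treated animals at week 0 and 74 to 130 in placebo animals, which overlap, and 1 of the 9 was called higher, a share near that of all genes. At week 15 it summed to 122 to 258 against 49.9 to 97.5, without overlap, with 7 of 9 called higher. Of 7 cytotoxic markers 3 were called higher at week 0 and 5 at week 15, and the list summed to 36 to 69.2 against 16 to 25.4 at week 15. At week 7, when all 10 genes were called, 11.4% of all genes tested rose. There 1 T cell marker was called higher and 1 lower, and 3 cytotoxic markers were called higher. For week 15 against the low dose, without a block, 1 marker of each of these lists was called larger, as were 2.04% of all genes tested. None of them was called for week 15 against week 7 without a block (0.00649% of all genes were). With the animal as a block, 6.68% of all genes were called larger than at the low dose. For week 15 against week 7, 0.209% were then called. Marker calls with the block are not given. Of the B and plasma cell markers 1 was called higher at week 0 and 4 at week 15 of 6 tested, with sums of 12.7 to 77.2 against 6.53 to 19.2, and of 9 myeloid markers 2 were called higher and 1 lower at week 15, with sums of 413 to 641 against 308 to 449. No listed marker was at 0 throughout a group. Over the 149 biopsies the T cell and cytotoxic lists correlated with the 10 genes at Pearson's r = 0.71 and 0.67. For the B and plasma cell list r was 0.58 and for the myeloid list 0.60. For the hepatocyte and skeletal muscle lists it was 0.39 and -0.28. These values share libraries and scaling and are descriptions. The part of the marked cells in the levels of the 10 genes was not tested. Of the 10 hepatocyte markers 1 was called higher at week 15, again near the share of all genes, and the list took 7.09% to 13.5% of reads in treated animals at week 15 and 7.19% to 10.8% in placebo animals.

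Runs of weeks 0 to 15 came from 7 sequencing lanes, each of which held both groups. Within lanes the mean of the treated runs exceeded the mean of the placebo runs in 7 of 7 lanes for each of the 10 genes, by 1.62 to 3.15 for TAP1, 0.90 to 2.41 for PSMB8 and 0.21 to 0.92 for B2M on the log2(CPM + 1) scale.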

How the data were processed

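RNA of woodchuck liver biopsies was sequenced as paired ends, and the deposited tables hold 203 sequencing runs of 164 biopsies. The authors mapped the reads with Bowtie2 to their own woodchuck transcriptome assembly and counted them per gene with SAMtools; versions are not given in the sources used here. The deposited estimated counts were used, of which 118 of 3368022 entries above 0 were fractions and were rounded. The deposited second value per gene behaved as RPKM, although no header names it, and served only to obtain relative gene lengths. The virus entry (1.95% of reads) was left out of library sizes, and the runs of 38 biopsies with several runs were summed.

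Groups came from the labels. Animal M1004 (7 biopsies), which the study set aside as probably clearing WHV by itself, and 8 biopsies of other weeks or at death were left out of all tests. Each week was compared between agents with edgeR 4.0.16 in R 4.3.3 (TMM, filterByExpr, quasi-likelihood test, Benjamini-Hochberg over all genes tested), at an adjusted p under 0.05 and a change over 1.5-fold. Differences between effects were tested as contrasts at an adjusted p under 0.05. Shares of subunits were compared by exact permutation tests, or with 100000 resamples where both groups held 10 or more animals. Alternatives were DESeq2 1.42.0, limma-voom (limma 3.58.1), other scaling, no filter, a 2-fold threshold, the deepest run alone, animal M1004 included, the animal as a block and 99 fits without 1 animal. Placebo ranges without biopsies holding muscle and overlap at week 3 without F1013 were added after seeing the data. The fits were tested on simulated data. Levels and figures were made with Python 3.11.15 and matplotlib 3.10.9.

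The labels give the animal number, so biopsies of 1 animal are paired across weeks. Deviations from the group means correlated with a median r of 0.392 over 55 pairs from the same animal and -0.000 over 1176 pairs from different animals. The 10 genes, the pathway lists and the markers were chosen with earlier results of these data known. All 10 genes are named, other pathway genes come from a set list, and genes are named from the 5 most like the 10 for each measure. Some of these genes are not reported here.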

Additional observations from a re-analysis of the deposited data

Results flagged for a closer look

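Of 100 groups of 4 to 10 animals tested for a value far from the others, 12 held one. Chance flags about 1 in 20 independent groups, but these are 10 genes in the same animals and are not independent, so the number is not read against it. In 9 of them it was wIFN-α animal F1013 at week 3, the lowest of its group, at 33.9 CPM for TAP1, 40.3 for TAP2, 107 for TAPBP, 32.1 for PSMB8, 11 for PSMB9, 17.9 for PSMB10, 52.9 for PSME1, 48.2 for PSME2 and 40 for NLRC5. The others were TAPBP of placebo animal M1005 at week 11 (85.3, lowest), TAPBP of placebo animal M1008 at week 23 (125, highest) and PSME1 of treated animal F1020 at week 15 (193, highest).

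The effect off treatment differed from that at week 15 for each of the 10 genes by edgeR's test of the difference, with log2 differences of -1.13 for B2M, -3.29 for TAP1, -2.34 for TAP2, -1.09 for TAPBP, -2.46 for PSMB8, -2.89 for PSMB9, -2.35 for PSMB10, -1.06 for PSME1, -1.40 for PSME2 and -2.77 for NLRC5.

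Biopsies outside the comparisons held levels above every placebo biopsy. In wIFN-α animal M1004 this was so for 10 genes at week 0 and for 9 at each of weeks 3, 7, 11 and 15. It was so for 4 genes in M1006, in a biopsy off the schedule that its label places at week 3, and for 8 in M1007 at death. No share of all genes stands beside these counts of single biopsies, so they are not read as a result about the 10 genes.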

How the results depend on the processing

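The number of the 10 genes called at each week stayed within 1.5 times under each alternative run. A threshold of 2-fold dropped PSME1 at weeks 0, 7 and 11, PSME2 at week 3 and B2M at week 7. PSME1 at week 3 passed with animal M1004 included (0.60), without F1013 (0.66) and without F1022 (0.59), and the TAP1 share at week 3 with animal M1004 included (4.96 points, adjusted p = 0.0486, exact permutation test).

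For week 15 against the low dose, 0 genes were called without a block, 1 by DESeq2, 1 with total counts alone, 5 with the animal as a replicate block, and 0 to 1 when 1 animal was left out, B2M passing without M1012 (0.94, adjusted p = 0.036, edgeR) or F1014 (0.92, adjusted p = 0.0371, edgeR). Over all genes that contrast called 421, 2048 with the block and 33 with week 3 alone as the low dose. From week 0 to week 3 it called 59, 149 with the block and 238 without the filter, and from week 7 to 15 it called 1, 34 with the block and 19 by DESeq2. The block changed no other call of the 10. The fit with the block was not repeated with animals left out.

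Signs changed for effects near 0. The highest effect at week -3 was 0.0046 by limma-voom and 0.043 with animal M1004. The lowest at week 19 was 0.02 in each of those fits and -0.28 to 0.12 when 1 animal was left out. The highest difference from week 0 to week 3 was -0.013 with the block. Without M1008 the highest effect at week 19 was 0.70, and without F1013 the lowest at week 23 was -0.68. The causes were not tested. Groups of 5 to 9 animals limit the weeks off treatment.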

Other observations

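Biopsies at other times belonged to no comparison. In an extra late biopsy of M1002, TAP1 was at 74 CPM and PSMB8 at 72.1, and none of the 10 genes exceeded every placebo biopsy. None did so in extra biopsies of M1010 and F1017 or in F1020, F1023 and F1024 at death. Here too no share of all genes stands beside the counts.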
